A study of Homo sapiens with 6 samples.

Results

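The genes described here are the ERBB receptors and the growth factors that bind them, 10 of the 57500 genes listed in the count tables: the 4 receptors EGFR, ERBB2, ERBB3 and ERBB4, and the 6 ligands AREG, EREG, BTC, NRG1, TGFA and HBEGF. They were taken by symbol. RNA-seq gene counts came from 22Rv1, an established line of human prostate cancer cells, in 2 groups of 3 libraries each: cells derived from a liver metastasis of 22Rv1 (LV, called liver-derived here) and the parental 22Rv1 line (WT, labelled wild type). Both groups share the medium given in the labels, RPMI-1640 with fetal bovine serum. The labels name no treatment, no host animal and no separate metastases, so the liver-derived line is a single derivation as far as they say. The series concerns differences in prostate-specific membrane antigen across metastatic prostate cancer, and the comparison addresses here how the ERBB system of the liver-derived cells differed from that of their parent.

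ERBB receptors are receptor tyrosine kinases that signal as pairs: a ligand bound outside the cell lets 2 receptors join, and the kinase domains phosphorylate each other and recruit adaptors to the RAS-ERK and PI3K-AKT pathways. EGFR binds AREG, EREG, BTC, TGFA and HBEGF. ERBB2 has no known ligand and is the preferred partner of the others. ERBB3 binds neuregulins such as NRG1, has little kinase activity of its own and couples strongly to PI3K, and ERBB4 binds neuregulins, BTC, HBEGF and EREG. In prostate epithelium EGFR is a receptor mainly of basal cells.

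The counts summed to between 28395265 and 53275252 per liver-derived library and to between 46031158 and 50934457 per parental library. Of the genes with enough reads, 19255 were tested with edgeR's quasi-likelihood test, and 7476 had a Benjamini-Hochberg adjusted p under 0.05. Of these, 45.1% were higher in the liver-derived cells. A fit with a correction for GC content called 11116 genes, of which 56.9% were higher. Parental replicate 2 differed from both other libraries of its group: a chi-square of its counts against theirs, per degree of freedom, was 55.7 and 62.7, against 2.26 between parental replicates 1 and 3 and 2.43 to 3.15 among the liver-derived libraries. Without it, 59.8% of the genes then tested passed in place of 38.8%, so several results, though not all, are also given without it. The labels do not say whether the libraries came from separate cultures, so p-values measure only the spread between these libraries. All 9 markers of the prostate line passed the count filter, with summed levels of 3880 to 3948 CPM (counts scaled to a common library size) in liver-derived and 3562 to 3887 CPM in parental libraries. Summed markers of hepatocytes were 65.7 to 69.3 CPM in liver-derived and 43.5 to 54.2 CPM in parental libraries, nearly all of it ALB. Of the 4 tested, ALB (log2 fold change 0.46, edgeR adjusted p = 0.00538) and APOA1 (1.78, 0.00167) were higher in the liver-derived cells. ASGR1 was lower (-3.08, 1.16e-05). APOA1 averaged 0.628 CPM in liver-derived and 0.184 CPM in parental cells, and ASGR1 0.178 CPM in liver-derived and 1.47 CPM in parental cells. Summed markers of stroma, endothelium and leukocytes were 22.2 to 24.6 CPM in liver-derived and 22.8 to 26.8 CPM in parental libraries, with CDH5 and CD3E at 0. Most of that sum was COL1A1, which averaged 18.3 CPM in liver-derived and 17.5 CPM in parental cells and was not called. Both called markers of that list were lower in the liver-derived cells: LUM had 2, 4 and 1 reads in liver-derived libraries and 88, 67 and 103 reads in parental libraries (log2 fold change -4.93, edgeR adjusted p = 1.81e-05), and COL3A1 averaged 0.790 CPM in liver-derived and 1.66 CPM in parental cells (-1.13, 0.00371). The part of the hepatocyte and stromal markers in the results on ERBB genes was not tested. In bulk RNA, fewer cells that carry a transcript and less of it per cell cannot be told apart.

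Of the receptor transcripts, EGFR was lower and ERBB2 higher in the liver-derived cells. EGFR was 4.24-fold lower, ERBB2 was 1.87-fold higher, and ERBB3, the most abundant receptor transcript in both lines, and ERBB4, the least abundant, did not pass the test. Among the ligands AREG was lower, BTC, TGFA and HBEGF did not pass, and EREG and NRG1 lay under the count filter. Of the 10 genes, 8 passed the count filter, and 3 of those were called, 1 higher and 2 lower, where 38.8% of all tested genes were called (17.5% higher and 21.3% lower). The share of called members is close to that background. Without parental replicate 2, 9 were tested and 6 called, 2 higher and 4 lower, where 59.8% of all genes were called.

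**Figure D1:**
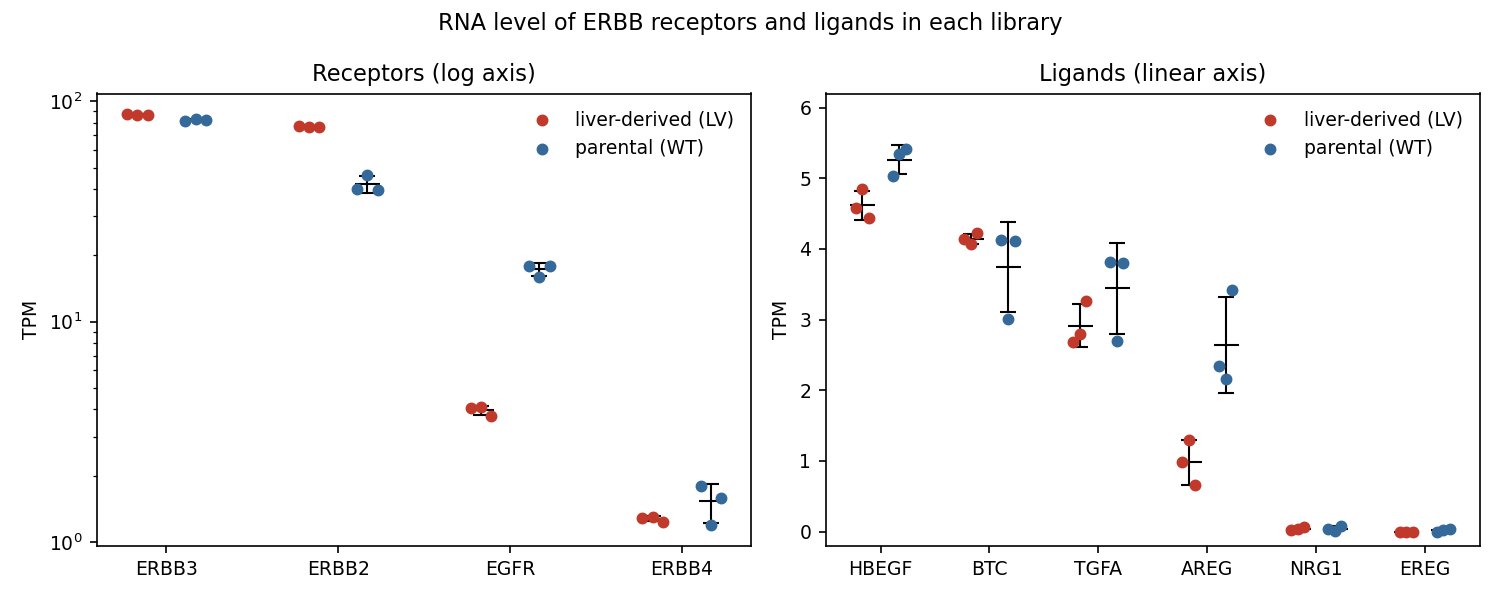
Level of each of the 10 ERBB genes in every library, in TPM (transcript level scaled by gene length and library), on a log axis for receptors and a linear axis for ligands, with liver-derived libraries (red) left of parental ones (blue), points for libraries and bars for the mean and SD of 3. EGFR and AREG sit lower and ERBB2 sits higher in all 3 liver-derived libraries than in any parental library, and EREG is at 0 in every liver-derived library.

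EGFR (ENSG00000146648, GRCh38 chr7:55019021-55211628, plus strand), the receptor of EGF and of most of these ligands, had 14.4, 14.5 and 13.4 CPM in the liver-derived libraries, against 60.8, 58.3 and 60.4 CPM in the parental ones. The groups lay far apart, and each was tight within itself. The means were 14.1 ± 0.609 CPM in liver-derived and 59.8 ± 1.31 CPM in parental cells (SD, n = 3 each), which is a log2 fold change of -2.09 ± 0.08 (SE; 95% interval -2.26 to -1.91; edgeR adjusted p = 1.13e-07). In depth this rests on 751, 406 and 651 reads in liver-derived libraries and 2951, 2647 and 3187 reads in parental libraries. Calls at least 2-fold lower made up 9.32% of all tested genes, and EGFR and AREG were the ERBB genes among them. Of all tested genes, 670 (3.48%) were called and at least as far lower as EGFR. The antisense transcript EGFR-AS1, which overlaps EGFR exons over 186 bases, held 0 to 1 reads in liver-derived and 1 to 5 in parental libraries.

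ERBB2 (ENSG00000141736, GRCh38 chr17:39687914-39730426, plus strand), the receptor without a ligand of its own and the target of trastuzumab, had 227, 225 and 225 CPM in liver-derived libraries, against 112, 139 and 110 CPM in parental libraries. All liver-derived libraries lay above all parental ones, and parental replicate 2 was the parental library nearest to them. The means were 226 ± 1.16 CPM in liver-derived and 120 ± 16.3 CPM in parental cells (SD, n = 3 each). The log2 fold change was 0.91 ± 0.10 (SE; 95% interval 0.69 to 1.13; edgeR adjusted p = 9.17e-05). Without parental replicate 2 it was 1.02. Exons of ERBB2 overlap those of MIEN1 over 571 bases (5.53% of the ERBB2 exon bases) and those of PGAP3 over 194 bases (1.88%), both on the opposite strand, and the strand setting of the counting is not given in the sources used here.

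ERBB3 (ENSG00000065361, GRCh38 chr12:56079857-56103505, plus strand), the kinase-poor neuregulin receptor, had 215, 213 and 215 CPM in liver-derived libraries and 190, 209 and 191 CPM in parental libraries. The groups did not overlap, but the gap to parental replicate 2 was small. The log2 fold change was 0.13 ± 0.07 (SE; 95% interval -0.03 to 0.28; edgeR adjusted p = 0.171), so the data leave room for a difference of up to 1.21-fold. Without parental replicate 2 the same estimate was 0.17 with an edgeR adjusted p of 5.78e-08, and with the GC correction it was 0.19 with an adjusted p of 4.20e-05.

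ERBB4 (ENSG00000178568, GRCh38 chr2:211375717-212538841, minus strand), the other neuregulin receptor, had 4.77, 4.80 and 4.59 CPM in liver-derived libraries and 6.36, 4.52 and 5.55 CPM in parental libraries. Parental replicate 2 lay below all liver-derived libraries and the other 2 parental libraries lay above them. The log2 fold change was -0.22 ± 0.13 (SE; 95% interval -0.52 to 0.08; edgeR adjusted p = 0.232). It was -0.34 with an adjusted p of 0.00586 without parental replicate 2, and -0.24 with an adjusted p of 0.0454 under the GC correction.

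Levels of different genes were compared in TPM, which is per length. The order ERBB3, ERBB2, EGFR, ERBB4 held in every library of both groups, with no overlap between neighbours in that order within either group. ERBB3 was at 87.5, 86.8 and 86.6 TPM in liver-derived and 81.0, 82.7 and 82.0 TPM in parental libraries, and ERBB2 was at 77.4, 76.6 and 76.3 TPM in liver-derived and 40.01, 46.3 and 39.6 TPM in parental libraries. EGFR was at 4.05, 4.09 and 3.75 TPM in liver-derived and 17.9, 16.0 and 17.96 TPM in parental libraries. Among 19737 protein-coding genes ranked by mean TPM, EGFR stood at percentile 46.3 in liver-derived and 63.4 in parental cells. ERBB2 stood at percentile 87.7 in liver-derived and 78.9 in parental cells, and ERBB3 at 89.3 in liver-derived and 88.4 in parental cells.

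As shares of the summed receptor TPM, EGFR made up 2.38, 2.42 and 2.23% in liver-derived libraries and 12.7, 10.9 and 12.7% in parental libraries. ERBB2 made up 45.5, 45.4 and 45.4% in liver-derived libraries and 28.4, 31.7 and 28.1% in parental libraries, and ERBB3 51.4 to 51.6% in liver-derived and 56.6 to 58.1% in parental libraries. The sum of the 4 receptors was 168 to 170 TPM in liver-derived and 141 to 146 TPM in parental libraries. The ERBB2 to ERBB3 ratio of TPM was 0.881 to 0.884 in liver-derived libraries and 0.483 to 0.560 in parental libraries, so the 2 transcripts were nearer to equal in the liver-derived line. The ERBB2 to EGFR ratio was 18.7 to 20.4 in liver-derived libraries and 2.21 to 2.89 in parental libraries. These shares and ratios describe transcripts, not receptor protein or its phosphorylation, and carry no test of their own.

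**Figure D2:**
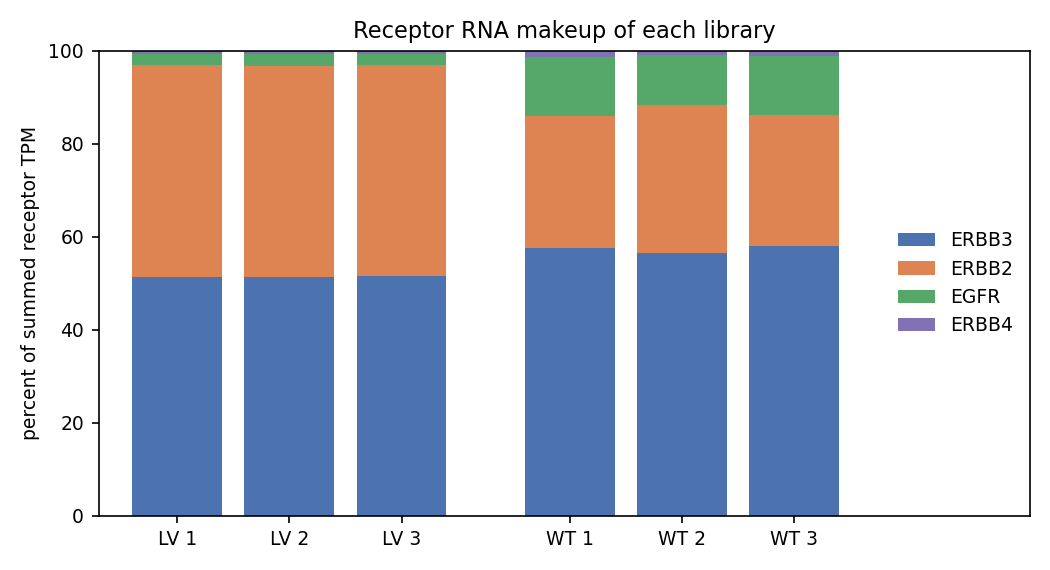
Share of the summed receptor TPM (percent) taken by each of the 4 receptors in every library, liver-derived libraries left of parental ones. EGFR takes 2.23 to 2.42% in liver-derived and 10.9 to 12.7% in parental libraries, and ERBB2 takes 45.4 to 45.5% in liver-derived and 28.1 to 31.7% in parental libraries.

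AREG (amphiregulin, ENSG00000109321, GRCh38 chr4:74445134-74455009, plus strand), an EGFR ligand made as a membrane-bound precursor, was the 1 ligand called. It had 0.460, 0.608 and 0.309 CPM in liver-derived libraries, against 1.05, 1.04 and 1.52 CPM in parental libraries. The groups did not overlap, but the level was low in both: 24, 17 and 15 reads in liver-derived libraries and 51, 47 and 80 reads in parental libraries. The means were 0.459 ± 0.150 CPM in liver-derived and 1.20 ± 0.274 CPM in parental cells (SD, n = 3 each). The log2 fold change was -1.44 ± 0.28 (SE; 95% interval -2.09 to -0.80; edgeR adjusted p = 0.00365), or 2.72-fold lower.

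BTC (betacellulin, chr4:74744759-74794686, minus strand), which binds EGFR and ERBB4, had 3.31, 3.26 and 3.40 CPM in liver-derived libraries and 3.15, 2.47 and 3.11 CPM in parental libraries, with a log2 fold change of 0.19 (95% interval -0.10 to 0.48; edgeR adjusted p = 0.280). HBEGF (heparin-binding EGF, chr5:140332843-140346631, minus strand) had 3.93, 4.15 and 3.83 CPM in liver-derived libraries and 4.12, 4.69 and 4.40 CPM in parental libraries, with a log2 fold change of -0.15 (95% interval -0.39 to 0.08; adjusted p = 0.285). TGFA (transforming growth factor alpha, chr2:70447280-70554193, minus strand) had 3.79, 3.94 and 4.63 CPM in liver-derived libraries and 5.15, 3.90 and 5.08 CPM in parental libraries, with a log2 fold change of -0.19 (95% interval -0.51 to 0.13; adjusted p = 0.322). For these 3 ligands the intervals span 0. The libraries of the groups overlapped on both scales for TGFA, in CPM but not in TPM for HBEGF, and in TPM but not in CPM for BTC. Where they did not overlap, HBEGF was lower and BTC higher in the liver-derived libraries. Without parental replicate 2, TGFA passed, with a log2 fold change of -0.31 and an edgeR adjusted p of 0.0216.

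EREG (epiregulin, chr4:74365143-74388751, plus strand) had 0 reads in all 3 liver-derived libraries and 0, 2 and 3 reads in parental libraries. A count of 0 allows up to 3 reads, which is 0.0574 to 0.107 CPM per liver-derived library, counting error only. NRG1 (neuregulin 1, the main ligand of ERBB3) had 3, 3 and 10 reads in liver-derived libraries and 5, 1 and 12 reads in parental libraries. Both lay under the filter of the test on all 6 libraries, and no fold change is given for them there. Without parental replicate 2 the filter let NRG1 in, with a log2 fold change of -0.42 and an edgeR adjusted p of 0.606.

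The 6 ligands summed to 12.4 to 13.04 TPM in liver-derived libraries and 13.2 to 16.9 TPM in parental libraries, well under the receptor sums. In liver-derived libraries the order was HBEGF, BTC, TGFA, AREG, each above the next without overlap, with 4.44 to 4.84 TPM for HBEGF and 0.655 to 1.30 TPM for AREG. In parental libraries HBEGF, at 5.03 to 5.42 TPM, lay above the rest, while BTC (3.01 to 4.12 TPM), TGFA (2.70 to 3.82 TPM) and AREG (2.16 to 3.42 TPM) overlapped. AREG was 5.18 to 9.97% of the summed ligand TPM in liver-derived libraries and 15.3 to 20.3% in parental libraries. BTC was 31.2 to 33.4% in liver-derived and 22.7 to 26.8% in parental libraries.

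Over the 8 genes tested, 5 had CPM values that did not overlap between the groups, where 54.0% of all tested genes did not overlap. In the deposited TPM values, tested with limma on log2(TPM + 1), the same 3 genes passed, with differences of -1.88 for EGFR (limma adjusted p = 1.03e-05), 0.86 for ERBB2 (0.000198) and -0.88 for AREG (0.0106), and 37.0% of all genes tested there passed. That scale understates the change of low genes such as AREG.

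**Figure D3:**
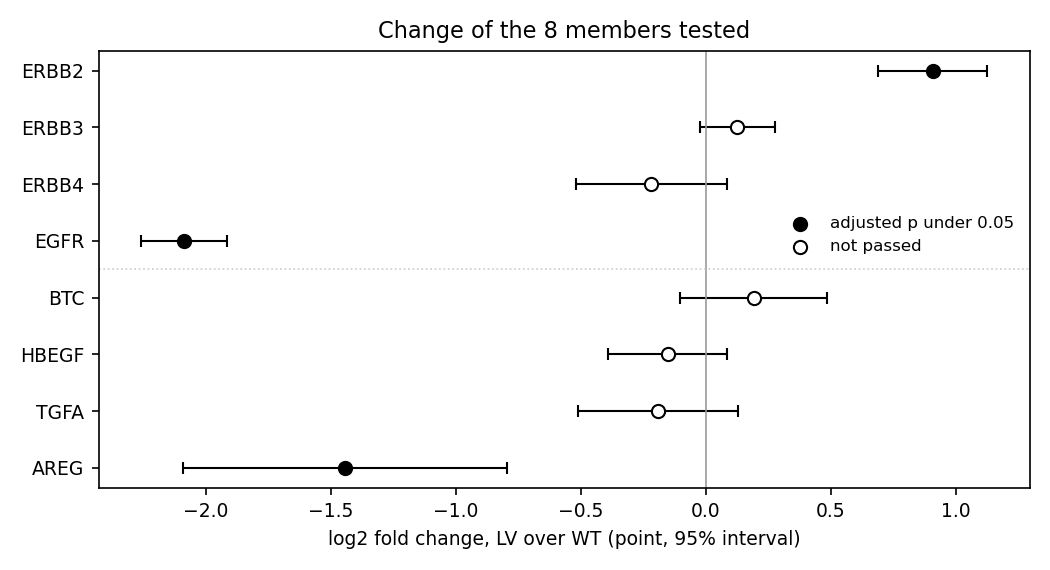
Log2 fold change of liver-derived over parental cells for the 8 ERBB genes that passed the count filter, from edgeR, with 95% intervals. The intervals of EGFR, AREG and ERBB2 lie clear of 0, and those of ERBB3, ERBB4, BTC, TGFA and HBEGF span it.

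For each of the 3 called genes the sequence around 1 annotated start is shown. Promoter activity was not measured. Counts per gene do not tell from which start the transcripts that differed came, and a gene can have other starts. They are the 300 bases from 250 before to 50 after the RefSeq transcript start (build GRCh38.p14), 5′ to 3′ on the gene's strand. A window was found for 8 of the 10 genes, and for EGFR the first of its windows is given. Capitals mark matches, on either strand, to 4 motifs: the GC box, with the letters GGGCGG, the CCAAT box, the TATA box, with the letters TATAAA, and the cAMP response element, with the letters TGACGTCA. None of the 4 motifs shares bases with another in these 3 windows.
EGFR, chr7:55018767-55019066, plus strand: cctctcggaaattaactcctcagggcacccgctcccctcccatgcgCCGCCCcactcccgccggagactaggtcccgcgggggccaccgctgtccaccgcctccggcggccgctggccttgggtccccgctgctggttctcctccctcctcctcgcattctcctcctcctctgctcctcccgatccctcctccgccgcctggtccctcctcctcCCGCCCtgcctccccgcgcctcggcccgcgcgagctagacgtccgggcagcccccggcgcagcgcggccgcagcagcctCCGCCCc
AREG, chr4:74444886-74445185, plus strand: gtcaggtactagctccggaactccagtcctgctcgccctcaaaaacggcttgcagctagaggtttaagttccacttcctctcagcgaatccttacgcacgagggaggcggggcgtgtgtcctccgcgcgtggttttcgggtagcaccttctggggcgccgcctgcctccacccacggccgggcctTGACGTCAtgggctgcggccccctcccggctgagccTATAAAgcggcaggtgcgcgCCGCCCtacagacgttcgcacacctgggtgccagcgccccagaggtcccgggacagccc
ERBB2, chr17:39687844-39688143, plus strand: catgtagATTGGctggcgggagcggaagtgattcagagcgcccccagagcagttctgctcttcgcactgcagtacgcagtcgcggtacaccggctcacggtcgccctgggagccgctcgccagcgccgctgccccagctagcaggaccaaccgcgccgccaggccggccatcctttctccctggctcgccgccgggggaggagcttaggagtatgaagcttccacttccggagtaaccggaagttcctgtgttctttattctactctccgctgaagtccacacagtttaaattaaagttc
The EGFR window shown was 75.3% G and C, with 3 GC boxes and no match to the other motifs. Its second window, not shown, was 42% G and C, with 2 TATA boxes and no match to the other motifs. The AREG window held the cAMP response element 65 bases before the start, a TATA box 29 bases before it and 1 GC box. The ERBB2 window held 1 CCAAT match, on the opposite strand 243 bases before the start, and also contained exon bases of PGAP3, which is read the other way. Of 35116 RefSeq windows of this length, 45.0% held GGGCGG, 34.6% CCAAT, 11.5% TATAAA and 1.85% TGACGTCA. Each is a match of letters only.

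Other parts of the ERBB pathway were described from gene lists, by counts from the fit across all genes. Over all lists, those of chromosomal neighbours included, 166 different genes were tested: 44 passed as higher in liver-derived cells and 38 as lower, or 49.4% called, beside 38.8% of all genes tested. The number called ranged widely with the libraries used: it was 54 when either liver-derived replicate 2 or liver-derived replicate 3 was left out, and 125 when parental replicate 2 was. The share called over all genes moved with it, at 29.97%, 29.01% and 59.8% in those 3 fits, and at 57.7% with the GC correction. Named genes are the strongest by the naming rule unless another reason is given.

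Of the other EGF-family ligands, none of the 2 tested passed, where 38.8% of all genes tested did. EGF itself had 0.766, 0.752 and 0.865 CPM in liver-derived libraries and 0.515, 0.309 and 0.645 CPM in parental libraries (log2 fold change 0.69, edgeR adjusted p = 0.0854). The groups did not overlap, and among the alternatives EGF passed only without parental replicate 3 (0.94, edgeR adjusted p = 0.0455). NRG3, an ERBB4 ligand, averaged 0.876 CPM in liver-derived and 1.22 CPM in parental cells (-0.49, adjusted p = 0.0853), and passed only with the GC correction (-0.52, edgeR adjusted p = 0.0473). EPGN, NRG2 and NRG4 lay under the filter at 0.0252, 0.167 and 0.175 CPM in liver-derived cells and 0.0685, 0.174 and 0.178 CPM in parental cells.

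Of 11 tested proteases and regulators that release ERBB ligands from the membrane, 4 were higher, none was lower and 7 did not pass. That is 36.4% called, beside 38.8% of all genes tested, with a median log2 fold change of 0.21 (-0.01 over all genes tested). ADAM8 averaged 3.60 ± 0.634 CPM in liver-derived and 2.18 ± 0.436 CPM in parental cells (log2 fold change 0.71, edgeR adjusted p = 0.0136). ADAM10, the main sheddase of EGF and BTC, averaged 91.3 CPM in liver-derived and 72.3 CPM in parental cells (0.34, adjusted p = 0.0214), ADAM9 198 CPM in liver-derived and 156 CPM in parental cells (0.34, 0.0175), and RHBDF2, a partner that brings ADAM17 to the cell surface, 19.2 CPM in liver-derived and 14.7 CPM in parental cells (0.38, 0.0357). ADAM17, which sheds AREG, TGFA and HBEGF and is named here after its value was seen, averaged 28.5 CPM in liver-derived and 28.03 CPM in parental cells (0.02, adjusted p = 0.874). The count called was 1 without any single liver-derived library, 2 with scaling by library size alone, and 7 without parental replicate 2 or with the GC correction. Over all genes, 28.4 to 29.97%, 39.5%, 59.8% and 57.7% were called in those fits, in that order. ADAM10, ADAM9 and RHBDF2 lost their call without any single liver-derived library, RHBDF2 also without parental replicate 1 or 3, with edgeR adjusted p up to 0.0838, 0.0698 and 0.118.

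Of 24 tested inhibitors of ERBB signalling, 10 were higher, 3 lower and 11 not called (54.2% called, 38.8% of all genes). The median log2 fold change was 0.23. ERRFI1 (MIG6), which binds and inhibits the kinase domains of EGFR and ERBB2, had 193, 186 and 189 CPM in liver-derived libraries and 43.0, 38.6 and 44.0 CPM in parental libraries. The groups were far apart, with a log2 fold change of 2.18 ± 0.08 (SE; edgeR adjusted p = 1.08e-07), close in size to the EGFR difference and opposite in direction. DUSP4, a nuclear phosphatase of ERK, averaged 57.9 ± 1.56 CPM in liver-derived and 15.2 ± 0.883 CPM in parental cells (1.93, adjusted p = 2.07e-07). LRIG3, of the LRIG family of ERBB regulators, averaged 22.9 CPM in liver-derived and 13.8 CPM in parental cells (0.74, 6.62e-05), and SOCS3 0.453 CPM in liver-derived and 1.11 CPM in parental cells (-1.21, 0.00692). CBL, the ubiquitin ligase that tags activated EGFR, and PTPRJ, an EGFR phosphatase, were the other lower genes, with log2 fold changes of -0.64 and -0.23, and both are named after their values were seen. With the GC correction 20 of the 24 were called, where 57.7% of all genes were.

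Of 45 tested adaptors and signal carriers, 11 were higher, 9 lower and 25 not called (44.4% called, 38.8% of all genes). The median log2 fold change was 0.03. PTK6, a kinase that binds ERBB receptors, averaged 4.46 ± 0.419 CPM in liver-derived and 1.60 ± 0.317 CPM in parental cells (log2 fold change 1.49, edgeR adjusted p = 0.000111). The regulatory subunits of PI3K moved in different directions. PIK3R1 averaged 11.6 ± 0.349 CPM in liver-derived and 24.2 ± 1.998 CPM in parental cells (-1.06, adjusted p = 1.91e-05), while PIK3R3 averaged 86.4 ± 1.23 CPM in liver-derived and 46.7 ± 2.24 CPM in parental cells (0.89, adjusted p = 1.30e-05). GRB10, an adaptor of receptor kinases, averaged 30.8 CPM in liver-derived and 19.1 CPM in parental cells (0.69, 0.000186). The count called was 11 of 45 without any single liver-derived library, where 28.4 to 29.97% of all genes were called. It was 37 of 45 without parental replicate 2, where 59.8% of all genes were.

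Of 18 transcripts known to rise when ERK is active, 8 were higher, 3 lower and 7 not called (61.1% called, 38.8% of all genes). The median log2 fold change was 0.14. DUSP4, given above, is on this list too, as are SPRY2, SPRY4, DUSP6 and SPRED2 of the inhibitor list. The counts of the inhibitor and ERK lists are therefore not separate. EPHA2, a receptor kinase, averaged 83.8 ± 2.14 CPM in liver-derived and 35.6 ± 4.16 CPM in parental cells (log2 fold change 1.24, edgeR adjusted p = 1.08e-05). EGR1, an immediate early gene, averaged 7.85 ± 0.582 CPM in liver-derived and 16.9 ± 0.394 CPM in parental cells (-1.10, adjusted p = 1.30e-05), and LIF, a cytokine, 1.30 CPM in liver-derived and 2.63 CPM in parental cells (-1.01, 0.000799). The third lower gene, PHLDA1, is named after its value was seen (-0.88, 4.58e-05). Members of the list therefore stood on both sides.

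Of 25 tested genes of receptor endocytosis, recycling and degradation, 2 were higher, 9 lower and 14 not called (44% called, 38.8% of all genes). The median log2 fold change was -0.03. NEDD4L, a ubiquitin ligase, averaged 65.0 ± 1.45 CPM in liver-derived and 132 ± 6.40 CPM in parental cells (log2 fold change -1.02, edgeR adjusted p = 5.10e-06), and WWP1, a related ligase, 72.4 ± 3.53 CPM in liver-derived and 35.4 ± 4.997 CPM in parental cells (1.03, adjusted p = 8.29e-05). The epsins EPN3 and EPN2, which carry ubiquitin-tagged cargo into endocytosis, were lower by log2 fold changes of -0.78 and -0.50 (adjusted p = 0.000426 and 0.00319). Exons of EPN3 overlap those of SPATA20 on the same strand over 10.3% of their bases. The other higher gene was CLTC, the clathrin heavy chain, named after its value was seen (0.24, 0.0322). The balance of directions depended on the fit. Without liver-derived replicate 1, 2 and 3 in turn 6, 5 and 5 were called, of which 1 was higher each time. Of all genes, 28.4%, 29.97% and 29.01% were called in those fits. Without parental replicate 2, 8 were higher and 12 lower, where 59.8% of all genes were called, and with the GC correction 9 were higher and 9 lower, where 57.7% were.

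Of 17 tested membrane partners and other receptor kinases, 3 were higher, 8 lower and 6 not called (64.7% called, 38.8% of all genes). The median log2 fold change was -0.63. It varied with the fit, from -0.68 with scaling by library size alone to -0.26 with the GC correction and replicate block. IGF1R, the IGF-1 receptor, had 2.34, 3.04 and 2.18 CPM in liver-derived libraries and 25.7, 24.9 and 24.7 CPM in parental libraries, a log2 fold change of -3.34 ± 0.12 (SE; edgeR adjusted p = 1.39e-07). FGFR3 averaged 28.2 ± 0.290 CPM in liver-derived and 113 ± 16.3 CPM in parental cells (-2.00, adjusted p = 1.25e-06). CD9, a tetraspanin that associates with HBEGF and TGFA precursors, averaged 77.2 ± 1.54 CPM in liver-derived and 231 ± 5.25 CPM in parental cells (-1.58, adjusted p = 2.16e-07), and MUC1, a mucin that binds ERBB receptors, 0.3601 CPM in liver-derived and 1.12 CPM in parental cells (-1.61, 0.000748). The higher genes, named after their values were seen, were CD44, FGFR1 and SDC4, with log2 fold changes of 0.31, 0.50 and 0.37.

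**Figure D4:**
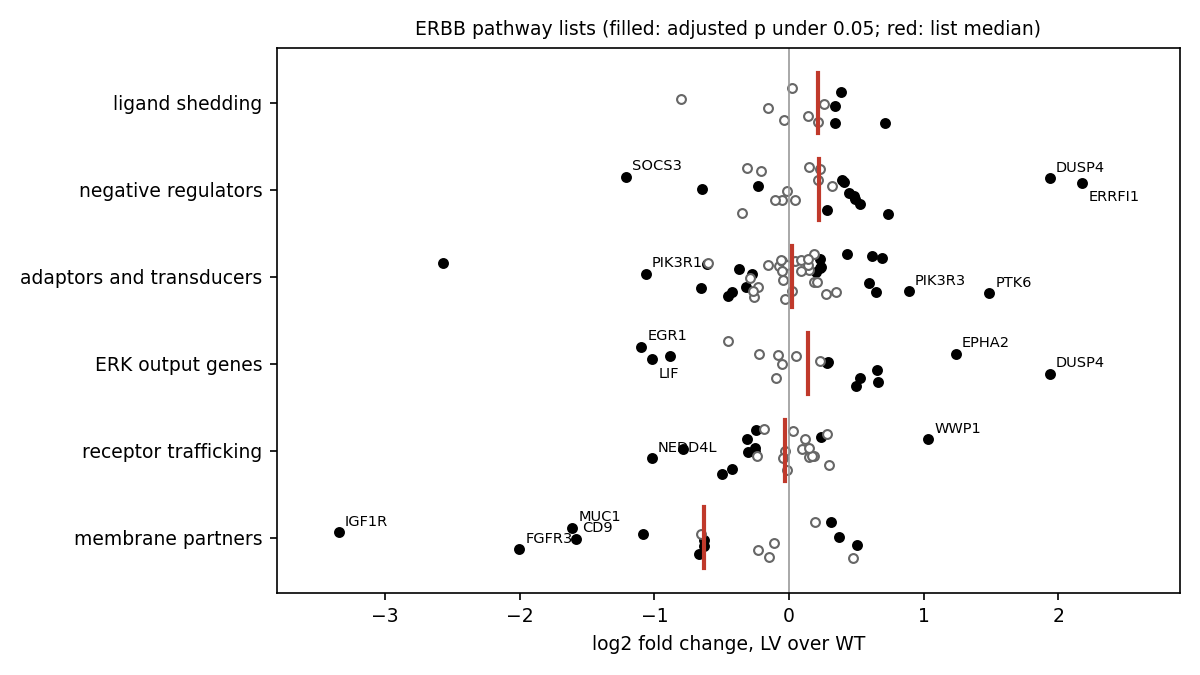
Log2 fold change of liver-derived over parental cells (edgeR) for every tested gene of 6 ERBB pathway lists, 1 row per list, with filled points for called genes, labels on the most changed of the named genes and a red bar at each list's median. ERRFI1 and DUSP4 lie farthest to the right and IGF1R farthest to the left, and the row medians run from -0.63 for membrane partners to 0.23 for inhibitors.

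Genes beside the called members on the chromosome were described in the same way, with distances between the 5′ ends of the genes. Of 15 tested genes beside ERBB2 on chromosome 17, 4 were higher, 2 lower and 9 not called (40% called, 38.8% of all genes). Without parental replicate 2 or with the GC correction 10 were called, where 59.8% and 57.7% of all genes were. PPP1R1B, a phosphatase inhibitor encoded at -61.2 kb from ERBB2, averaged 32.4 ± 0.342 CPM in liver-derived and 11.5 ± 1.74 CPM in parental cells (log2 fold change 1.498, edgeR adjusted p = 9.10e-06). GSDMB, a gasdermin, averaged 9.15 CPM in liver-derived and 6.06 CPM in parental cells (0.60, 0.00195), and TCAP and PGAP3 had log2 fold changes of 0.48 and 0.29 (adjusted p = 0.0245 and 0.0423). TCAP lost its call without liver-derived replicate 1 or 3 or parental replicate 1 or 3 (edgeR adjusted p up to 0.0972), with no filter on low counts (0.0693) and in DESeq2 (adjusted p = 0.102). PGAP3 lost its call without any single library other than parental replicate 2 (edgeR adjusted p up to 0.167), with the replicate block (0.0571), with upper-quartile factors (0.0560) and with library size alone (0.0599). GRB7 and STARD3, which are often amplified together with ERBB2 in breast cancer, are named here after their values were seen. GRB7 averaged 35.9 CPM in liver-derived and 31.6 CPM in parental cells (0.19, adjusted p = 0.159), STARD3 41.7 CPM in liver-derived and 42.6 CPM in parental cells (-0.03, 0.827), and MIEN1, which shares exon bases with ERBB2, 102 CPM in liver-derived and 101 CPM in parental cells (0.02, 0.889). The lower genes, MED1 (-0.25) and IKZF3 (-1.64), are likewise named after their values were seen. The ERBB2 difference of 0.91 thus stood among neighbours on both sides of 0.

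Of 9 tested genes beside EGFR on chromosome 7, 4 were higher, 3 lower and 2 not called (77.8% called, 38.8% of all genes). VSTM2A, a secreted regulator of fat cell formation in mice, at -477 kb from EGFR, had 0.689, 1.04 and 0.865 CPM in liver-derived libraries and 14.0, 13.9 and 15.4 CPM in parental libraries, a log2 fold change of -4.10 ± 0.14 (SE; edgeR adjusted p = 1.02e-07). SEC61G, a subunit of the protein translocation channel, lies between the 2 and averaged 101 ± 3.26 CPM in liver-derived and 127 ± 5.85 CPM in parental cells (-0.33, adjusted p = 0.00489), and lost its call with the GC correction (-0.31, 0.101). LANCL2, 346 kb after EGFR, averaged 25.8 ± 0.787 CPM in liver-derived and 17.9 ± 0.833 CPM in parental cells (0.52, adjusted p = 0.000635), and NIPSNAP2, 933 kb after it, 64.8 CPM in liver-derived and 92.6 CPM in parental cells (-0.52, 0.00301). The other higher genes, VOPP1, PSPH and CCT6A, had log2 fold changes of 0.21, 0.31 and 0.19 and are named after their values were seen.

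AREG, EREG and BTC lie in 1 segment of chromosome 4 together with EPGN and a group of chemokine genes. Of 13 genes listed there 6 were tested: AREG was lower, PARM1 was higher and 4 were not called, or 2 with the GC correction. The 33.3% called stands beside 38.8% of all genes tested, and 57.7% of all genes were called with the GC correction. PARM1, whose name stands for prostate androgen-regulated mucin-like protein, encoded 488 kb after AREG, averaged 71.2 ± 2.22 CPM in liver-derived and 26.8 ± 2.45 CPM in parental cells (log2 fold change 1.41, edgeR adjusted p = 3.04e-06). BTC, between them, is given above.

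**Figure D5:**
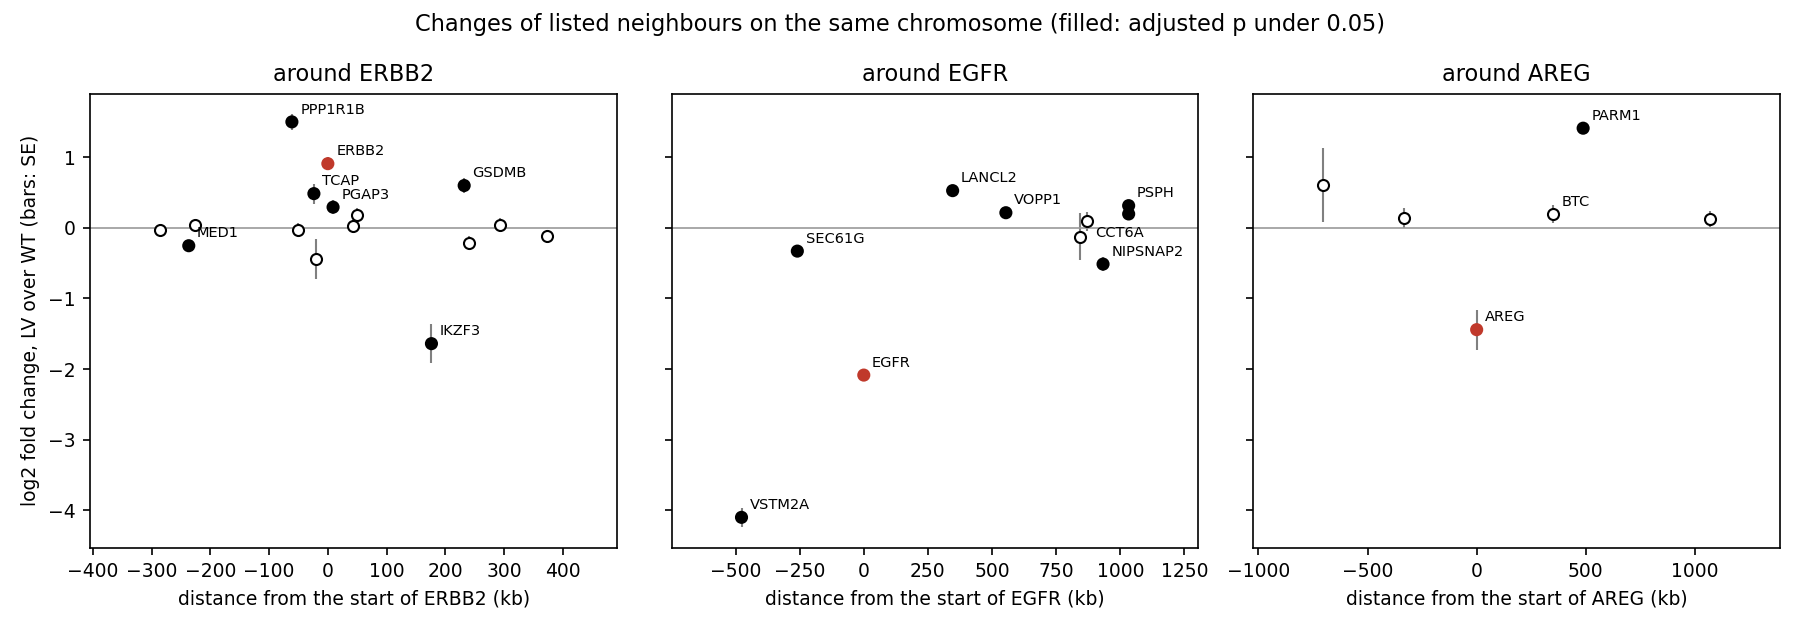
Log2 fold change of liver-derived over parental cells (edgeR, bars for SE) for tested genes beside ERBB2, EGFR and AREG, plotted by distance in kb from the 5′ end of each of those 3 genes (red), with filled points for called genes. EGFR at -2.09 stands between SEC61G at -0.33 and LANCL2 at 0.52, ERBB2 at 0.91 between PNMT, which was not called, and PGAP3 at 0.29, and AREG at -1.44 near BTC at 0.19.

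Markers of other prostate cell types were set beside the receptors. The 3 tested basal epithelial markers of 4 (KRT5, KRT14 and KRT17) were lower in the liver-derived cells, with a summed level for the list of 0.804 to 1.25 CPM in liver-derived and 2.58 to 5.37 CPM in parental libraries, low in both. The 3 tested neuroendocrine markers of 4 were also lower, with a summed level of 227 CPM in each liver-derived library and 434 to 529 CPM in parental libraries. The part of either in the EGFR difference was not tested.

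As a description over the 6 libraries, the protein-coding genes whose log2 CPM followed ERBB2 most closely by Pearson correlation were GALNT2, SOD1 and ACAD10, and those that followed EGFR most closely were KIF5C, KCNMA1 and SEMA6A. Such likeness is set mainly by the gap between the 2 groups: of 12802 genes compared, 324 had a correlation above 0.99 with ERBB2 and 440 with EGFR. SOD1 averaged 424 CPM in liver-derived and 262 CPM in parental cells, and SEMA6A 28.2 CPM in liver-derived and 155 CPM in parental cells.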

How the data were processed

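Polyadenylated RNA of 22Rv1 cells was sequenced as paired reads on an Illumina NovaSeq, per the labels' protocols. Reads were processed with Trimmomatic 0.36, STAR 2.5.2b and featureCounts of Subread 1.5.2 on GRCh38, per the submitters' processing notes; for parameters, annotation release and strand setting nothing is given in the sources used here. Raw gene counts, 1 file per library, and a table of TPM were deposited by the authors. TPM recomputed here from counts and gene lengths differed from the deposited TPM by a relative 4.8e-05 at most, so both hold the same measurement. Left out were 391182 rows of the TPM table that name no gene. A further condition that the series' design text speaks of was not analysed here.

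Groups and replicate numbers were taken from the sample titles. The test on counts was that of edgeR 4.0.16 under R 4.3.3 (filterByExpr, TMM, robust quasi-likelihood fit, group as the only term), adjusted by the Benjamini-Hochberg method over 19255 genes, with a threshold of 0.05. CPM values are TMM-normalised, and intervals are 95% intervals of the fitted log2 fold change. The log2(TPM + 1) values of genes with at least 1 TPM in 3 libraries were tested with limma 3.58.1. Within each group every pair of libraries differed by more than sampling noise, and each library was counted as 1 replicate. That difference cannot show that the libraries came from separate cultures. Same-numbered libraries did not deviate together (correlations of -0.00842, 0.00925 and 0.0722), so the numbers were not used as pairs. GENCODE release 29 gave biotype, GC content and exon overlaps, and RefSeq (GRCh38.p14) the promoter windows. The fits were also run on simulated counts with 1 common spread, no outlying library and no GC trend. That run therefore does not cover the departure of parental replicate 2 or the effect of the GC correction.

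The ERBB members, gene lists and tests were chosen with earlier results of these data known. All members are named, and from each list the up to 4 called genes of largest change that reached 1 CPM in the higher group, plus all other EGF ligands; the 3 genes most like the called member with the highest level and the one with the largest change are named too. Alternatives were RLE or upper-quartile factors, library size alone, other count filters, DESeq2 1.42.0, limma-voom, each library or both second replicates left out, a replicate block, GC correction, and, on the TPM scale, 0.1 as the pseudocount or all genes unfiltered.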

Additional observations from a re-analysis of the deposited data

How the results depend on the processing

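EGFR, ERBB2 and AREG kept their direction and their call under all 17 alternatives for counts, with log2 fold changes of -2.14 to -2.05 for EGFR, 0.84 to 1.05 for ERBB2 and -1.72 to -1.21 for AREG (edgeR, DESeq2 or limma-voom adjusted p up to 5.94e-06, 0.000978 and 0.0181), and under all 9 alternatives for TPM. No result reversed. BTC and HBEGF passed under none of the 17. Leaving out 1 library at a time gave 5600 to 11870 called genes in all (7476 with all libraries), 3 to 6 called ERBB genes (3), 54 to 125 called genes of the pathway lists (82), and 3 to 5 called ERBB genes in TPM (3); the upper end of each range came from leaving out parental replicate 2. Leaving out both second replicates gave 11677 called genes and 5 called ERBB genes, and the GC correction also gave 5 called ERBB genes, the added ones being ERBB3 and ERBB4 in both; the cause was not tested. Of 34 named list genes tested, 26 kept direction and call under every alternative and 8 lost or gained a call.

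With the replicate number as a block, 7052 genes in all, 3 ERBB genes and 74 list genes were called, and 3 ERBB genes in TPM. The block together with the GC correction gave 4 ERBB genes. Only replicate 3 of the 3 numbers correlated best with its own number. That neither shows nor excludes a pairing beyond the label.

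Depth limits EREG and NRG1, which fell under the count filter. Where another filter or set of libraries let them be tested, neither passed: NRG1 had log2 fold changes of -0.42 to 0.11 over 6 alternatives (adjusted p of at least 0.606), and EREG an adjusted p of 0.203 in edgeR with no filter. Depth also leaves AREG on 15 to 80 reads per library.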
